A study of Mus musculus with 4 samples.

Results

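The replication-dependent histone genes of the mouse were followed in the otic vesicle, the embryonic epithelium that becomes the inner ear. They were taken as every protein-coding gene of the deposited table whose older symbol begins with Hist1h, Hist2h, Hist3h or Hist4h, which gave 67 of 34866 genes. By type these were 6 genes for the linker histone H1, 18 for H2A, 18 for H2B, 12 for H3 and 13 for H4. By cluster, 54 lay in Hist1 on chromosome 13, 10 in Hist2 on chromosome 3, 2 in Hist3 on chromosome 11 and 1, Hist4h4, on chromosome 6. The libraries came from C57/BL6 embryos at embryonic day 11.5, 2 of them wild type (WT 1, WT 2) and 2 from embryos with mutant Meis2 (KO 1, KO 2), and each run of 4 values below keeps that order. Meis2 encodes a homeodomain transcription factor, and the study compared mutant with wild-type vesicles. The allele, whether it acts in all cells, and the number of embryos per library are not stated in the labels, so p-values here reflect only library-to-library spread, part of which may be technical.

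Histones package DNA: H2A, H2B, H3 and H4 form the core of the nucleosome and H1 binds the DNA between cores. Replication-dependent histone genes are switched on in S phase, when newly made DNA has to be packaged, and lie in clusters that hold many near-identical copies. Their mRNAs are unusual in that most end in a short stem-loop, bound by the protein Slbp, in place of a poly(A) tail. Some of these genes can also give longer, polyadenylated transcripts, mainly in cells that leave the cell cycle. Replication-independent histones such as H3.3 and H2A.Z come from genes with introns outside these clusters, are polyadenylated and are made throughout the cell cycle. The labels do not say whether poly(A) RNA was selected for these libraries.

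The stem-loop shows which of the annotated transcripts reach the usual end of a histone mRNA. In the GENCODE M21 transcripts of GRCm38, 52 of the 67 genes had a model that runs at least 16 bases past the stop codon, and 44 of these held the stem-loop core there, searched on the transcript strand as GG, 2 bases of any kind, CTTTT, any base, AG, 2 bases of any kind and CC. The same core was found after the stop codon of 17 of 20824 other coding genes (0.0816%), among them H2afx, a variant H2A. It began between 21 and 58 bases after the stop codon, with a median of 31. Below are the stem-loops of the genes with the highest levels of each type that have one, written 5′ to 3′ as DNA, with the core in capitals.
Hist1h1c: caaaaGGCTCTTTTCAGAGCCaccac
Hist1h2ap: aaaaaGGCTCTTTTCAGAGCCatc
Hist1h2ag: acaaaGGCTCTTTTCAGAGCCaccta
Hist3h2ba: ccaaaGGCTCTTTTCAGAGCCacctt
Hist1h2bk: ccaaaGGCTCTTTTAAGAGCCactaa
Hist1h3c: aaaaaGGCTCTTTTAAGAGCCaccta
Hist1h4i: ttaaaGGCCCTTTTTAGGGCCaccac
Hist1h4b: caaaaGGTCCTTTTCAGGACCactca

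The core set H4 apart from the other types, which shared theirs. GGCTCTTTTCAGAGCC was the commonest of the 6 cores, with 26 genes of the types H1, H2A, H2B and H3, and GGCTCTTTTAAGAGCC was in 6 genes of H1, H2B and H3. All 11 H4 genes with a core had another stem: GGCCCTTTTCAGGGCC in 7, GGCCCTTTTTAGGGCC in 2 and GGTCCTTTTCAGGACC in 2. The Hist1h2ap core lies on the minus strand at chr13:21833026-21833049 with its flanks, and the gene's model stops 3 bases after it. The Hist1h4i core, at chr13:22040961-22040986 on the minus strand, is followed by 330 more bases. In the Hist3h2ba model (plus strand, chr11:58949344-58949369) 169 bases follow the core, with the poly(A) signal AATAAA among them. The other stem-loops lie at chr13:23739507-23739532 (plus strand, Hist1h1c), chr13:22042478-22042503 (minus, Hist1h2ag), chr13:22036295-22036320 (plus, Hist1h2bk), chr13:23745042-23745067 (minus, Hist1h3c) and chr13:23757361-23757386 (plus, Hist1h4b).

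The values are gene-level TPM, a share of all transcripts corrected for length, whose read depth is unknown. Meis2 itself was at 79.0, 88.7, 73.2 and 76.6 TPM, and as the deleted part is not given, this checks no label. The 14 otic epithelium genes listed (Pax2, Oc90, Epcam and others) were all present, with summed levels of 1370 to 1814 TPM. Markers of other cells were present too. Summed over 12 genes each, neuron markers ranged from 291 to 916 TPM and erythroid markers from 10852 to 25978 TPM, and 10 mesenchyme markers summed to 772 to 1356 TPM; none of these markers was at 0 in all 4 libraries. In such bulk samples, fewer cells of a type and less RNA per cell cannot be told apart.

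Most histone genes were low in TPM. Whether poly(A) RNA was selected is not stated in the labels, and the part of such selection in these levels was not tested. The median of the 67 mean levels was 1.56 TPM, against 4.93 TPM for the 21782 coding genes of the table, and 8 histone genes (11.9%) reached a mean of 10 TPM, against 42.5% of coding genes. Of these 8, Hist1h2ah and Hist1h2ai reached it through WT 2 alone. A mean of at least 1 TPM was reached by 46 of the 67, 21 were lower, and Hist1h2ba was listed at 0 in all 4 libraries. All histone genes together summed to 952, 1188, 1409 and 1096 TPM. KO 2 lay between the wild-type libraries, so the genotypes overlapped. The WT 2 sum includes 186 TPM of Hist1h2ah and 32.8 TPM of Hist1h2ai. H2A genes made up between 77.8% and 84.8% of these sums and H2B genes between 7.64% and 11.8%.

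**Figure D1:**
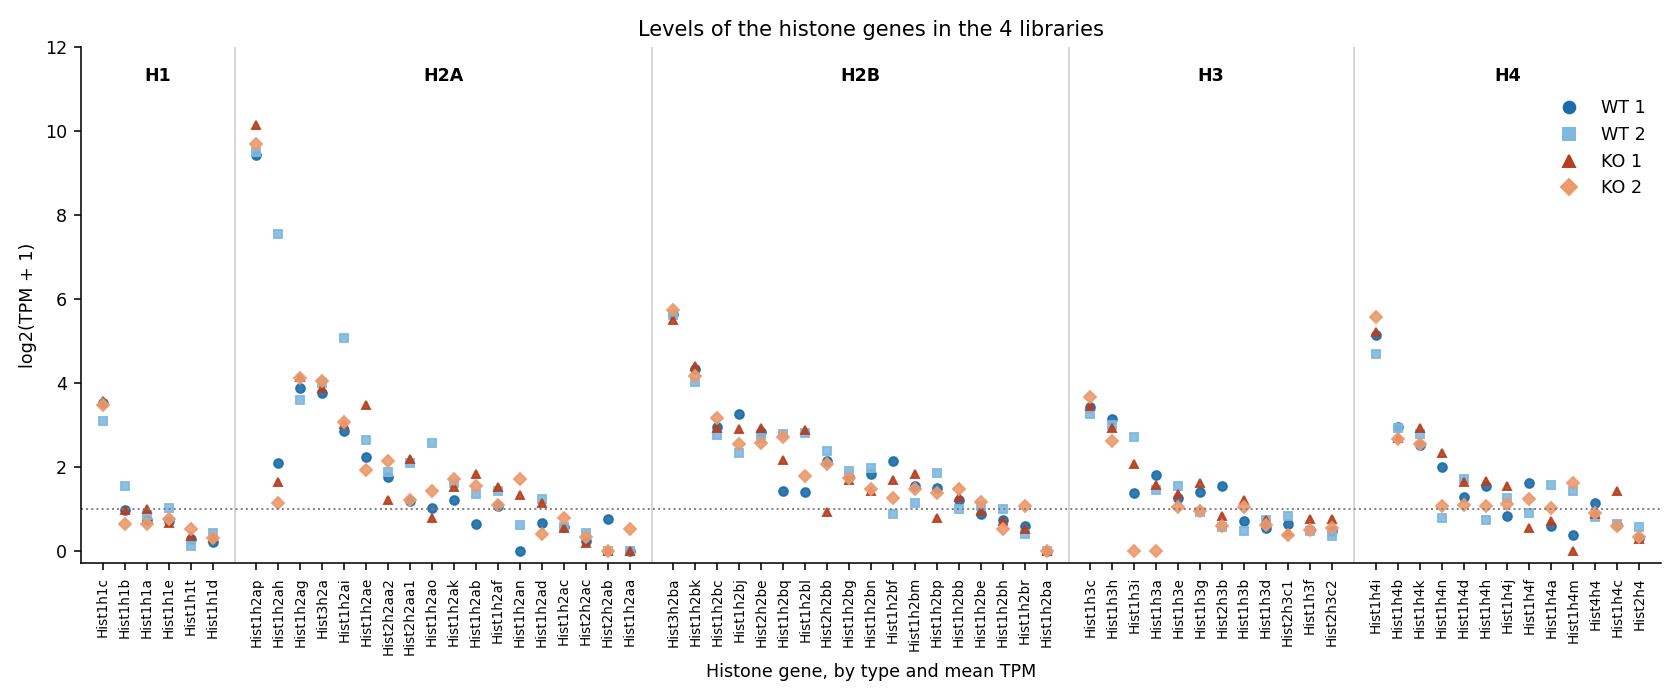
Level of each of the 67 histone genes, as log2(TPM + 1), by histone type and in falling order of mean TPM, with 1 point per library; the dotted line is 1 TPM. Hist1h2ap stands far above the rest in all 4 libraries, and Hist1h2ah and Hist1h2ai stand apart in WT 2 alone.

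A single H2A gene carried most of the signal. Hist1h2ap (ENSMUSG00000094777.2, chromosome 13, 21833026 to 21833507, minus strand, 1 exon, GRCm38) was at 691, 721, 1131 and 824 TPM. It ranked between 138 and 218 among all genes of a library. Its share of the histone sum was 60.7% in WT 2 and between 72.6% and 80.2% in the other libraries. Both KO libraries were above both wild-type libraries, and the means were 706 ± 20.7 TPM for wild type and 977 ± 217 TPM for mutant (SD, n = 2 each). On the log2(TPM + 1) scale KO exceeded WT by 0.45 (SE 0.17), with an adjusted p of 1.00 in limma, by 0.22 without KO 1 and by 0.68 without KO 2. KO 1 was also the library with the most mesenchyme RNA, and the part of that in the difference was not tested.

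This value is hard to assign to 1 copy. Of the 31-mers (stretches of 31 bases, on either strand) in the Hist1h2ap model, 6.64% occurred in no other gene of the table. Hist1h2ao, in the same block of the cluster, shared 93.4% of them, yet stood at 1.02, 4.97, 0.732 and 1.70 TPM. The 2 genes have the same coding sequence. Hist1h2ap is 1 of 9 H2A genes that encode an identical protein of 130 residues.

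Hist1h2ah (ENSMUSG00000069302.5, chromosome 13, 22035164 to 22035568, minus strand), another H2A copy, behaved differently in 1 library. It was at 3.24, 186, 2.12 and 1.20 TPM, so WT 2 was 57.6-fold above the next library. Among the 13503 coding genes tested (mean of 1 TPM or more), it had the largest difference between WT 1 and WT 2 on the log2(TPM + 1) scale, 5.47. Among all 14496 genes tested, coding or not, Hist1h2ah ranked 13 by this difference. Hist1h2ai, a further H2A copy, was also high in WT 2 alone, at 32.8 TPM against 6.30 to 7.45 TPM elsewhere. Hist1h2ao was the only other gene among the 46 whose highest library, again WT 2, was at least 2-fold above the next. These 3 genes share sequence with Hist1h2ap and with each other: 79.7% of the 31-mers of Hist1h2ah and 75.5% of those of Hist1h2ai also occurred in Hist1h2ap. Such sharing was not particular to genes high in WT 2. Hist1h2ag held 81.3% of the 31-mers of Hist1h2ah and was lowest in WT 2, at 11.1 TPM. WT 2 was also the library with the most erythroid RNA, at 25978 TPM over 12 markers against at most 15342 TPM elsewhere, and the part of that in these values was not tested.

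Summed over all copies, H2A did not separate the genotypes. The 18 H2A genes summed to 740, 990, 1195 and 883 TPM, so that KO 2 fell between the wild-type libraries. The WT 2 sum includes 186 TPM of Hist1h2ah and 32.8 TPM of Hist1h2ai. Leaving out Hist1h2ap, Hist1h2ah and Hist1h2ai, a choice made after the values were seen, the other 15 H2A genes summed to 39.4, 50.3, 55.7 and 50.4 TPM in the same order. There both KO libraries were above both wild-type ones, though KO 2 and WT 2 lay close, at 50.41 and 50.29 TPM. Among these 15, Hist1h2ag was the highest Hist1 gene at 13.6, 11.1, 16.7 and 16.3 TPM, with both KO libraries above both wild-type ones. Hist3h2a, in the small Hist3 cluster, was at 12.46, 14.97, 13.68 and 15.49 TPM, and there the groups overlapped. Hist3h2a overlaps the gene Trim17 on the same strand, with 32.1% of its 31-mers in common, so part of its value may belong to that gene.

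**Figure D2:**
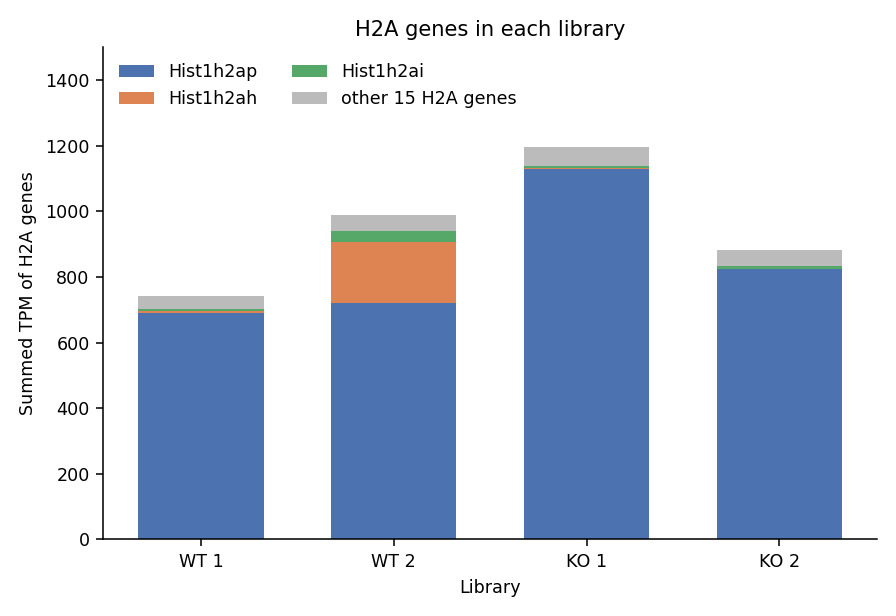
Summed TPM of the 18 H2A genes in each library, as stacked bars for Hist1h2ap, Hist1h2ah, Hist1h2ai and the other 15 genes. Hist1h2ap fills most of every bar, and the Hist1h2ah part is visible in WT 2, at 186 TPM.

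H2B genes were lower but steadier. They summed to 112, 108, 108 and 112 TPM, so no library stood apart. The highest was Hist3h2ba (ENSMUSG00000056895.4, chromosome 11, 58948920 to 58949533, plus strand) at 48.8, 47.8, 44.2 and 52.2 TPM, which made up 41.0% to 46.8% of the H2B sum. Hist1h2bk was at 19.3, 15.3, 20.2 and 16.8 TPM. Hist1h2bc, whose annotated transcript has 2 exons, was at 6.79, 5.82, 6.63 and 7.93 TPM. In all of these the genotypes overlapped. Hist3h2ba is also easier to tell from its copies than Hist1h2ap, with 62.8% of its 31-mers in no other gene.

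All 13 H4 genes encode the same protein of 103 residues, so their sum is the message for 1 product. The sum was 57.5, 48.9, 62.1 and 67.3 TPM. Both KO libraries were above both wild-type libraries. Hist1h4i (ENSMUSG00000060639.5, chromosome 13, 22040636 to 22041362, minus strand) gave 51.1% to 69.0% of it, at 34.1, 25.0, 35.9 and 46.4 TPM. Of the 10 H4 genes tested, Hist1h4i alone had both KO libraries above both wild-type ones. Hist1h4b went the other way, at 6.73, 6.68, 5.49 and 5.34 TPM, and in the other 8 the genotypes overlapped. By log2 difference 5 of the 10 were higher in KO and 5 lower, with a median of 0.00. The order of the H4 sum was thus that of its largest gene and not of most H4 genes. Hist1h4k was at 4.75, 5.85, 6.63 and 4.89 TPM. Hist4h4, the lone gene on chromosome 6, was at 1.20, 0.751, 0.833 and 0.883 TPM.

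H3 and H1 genes were the lowest types. The 12 H3 genes encode 3 different proteins and summed to 29.1, 28.6, 29.9 and 22.0 TPM, so KO 2 stood lowest. Hist1h3c led with 9.74, 8.56, 9.99 and 11.6 TPM in that order. Hist1h3h was at 7.83, 6.96, 6.57 and 5.15 TPM, with both KO libraries lower. Hist1h3i was at 1.62, 5.51 and 3.23 TPM in the first 3 libraries and was listed at 0 in KO 2. It shares 85.3% of its 31-mers with Hist1h3h. The 6 H1 genes encode 6 different proteins and summed to 11.7 to 14.0 TPM. Hist1h1c gave 64.4% to 80.2% of that, at 10.5, 7.52, 11.0 and 10.1 TPM. Hist1h1b was at 0.968, 1.91, 0.955 and 0.568 TPM, and Hist1h1a at 0.679, 0.801, 1.01 and 0.570 TPM.

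The germ cell histones were at or near 0. Hist1h1t, the H1 of spermatocytes, was at 0.220, 0.0773, 0.274 and 0.427 TPM. Hist1h2aa, a testis H2A, was listed at 0 except in KO 2, where it was at 0.437 TPM. Hist1h2ba, the testis H2B next to it, was listed at 0 in every library. Hist1h1t shared no 31-mer with another gene, so its low value is not split between copies. Such levels were not particular to the germ cell genes. The means of Hist1h1d and Hist2h2ab, at 0.241 and 0.173 TPM, were as low as that of Hist1h1t, at 0.249 TPM.

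Along chromosome 13, genes of high and low level lay side by side. With a gap of over 100 kb as the border, Hist1 fell into 4 blocks on chromosome 13. The first (21715763 to 21837530) held 18 genes, 17 of them with a mean of at least 1 TPM, and without Hist1h2ap it summed to 38.0, 83.5, 49.7 and 43.0 TPM. The second (22035164 to 22043676) held 5 genes, of which Hist1h2bk, Hist1h4i, Hist1h2ag and Hist1h2bj had a mean of at least 5 TPM and Hist1h2ah reached 5 TPM in WT 2 alone. The third (23531050 to 23764406) was the largest, with 29 genes, of which 18 reached 1 TPM and 5 reached 5 TPM; it summed to 64.0, 60.2, 74.1 and 60.1 TPM. The last held the testis pair alone. Hist2 on chromosome 3 was low throughout, at 17.2, 18.0, 14.5 and 14.7 TPM over its 10 genes, with both KO libraries below both wild-type ones. Hist2h2be, its highest gene, was at 6.16, 5.42, 6.58 and 4.99 TPM.

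Genes that start back to back could differ widely in level. In 12 places an H2A and an H2B gene point away from each other with 175 to 305 bases between their annotated starts. The H2A gene had the higher mean in 6 pairs and the H2B gene in 6, and in 8 of the 11 pairs with both genes above 0 the means were within 4-fold. Library by library the order was less even: the H2A gene was higher in all 4 libraries in 4 pairs and the H2B gene in 3, and 5 or 6 pairs of a library lay within 4-fold. Hist1h2ah had the higher mean of its pair only through WT 2, since Hist1h2bk was higher in the other 3 libraries. This pair counts among the 8 within 4-fold by its means, yet its genes were over 4-fold apart in each library. The widest gap was between Hist1h2ap, with a mean of 842 TPM, and Hist1h2br, with 0.589 TPM. Both are hard to tell from other copies. Of the 31-mers of Hist1h2ap, 6.64% occurred in no other gene, and Hist1h2bq shared 89.5% of those of Hist1h2br. The stretch between the starts of Hist1h2ap and Hist1h2br is shown because both genes begin from it. It comes from RefSeq's promoter table on GRCm38.p6 (chr13:21833508-21833742, plus strand, reading towards Hist1h2br). The same letters stand in the promoter of Hist1h2bq, whose mean was 4.18 TPM against 2.10 TPM for its partner Hist1h2ao, so the stretch is not particular to this pair. Capitals mark CCAAT on either strand.
Hist1h2ap and Hist1h2br: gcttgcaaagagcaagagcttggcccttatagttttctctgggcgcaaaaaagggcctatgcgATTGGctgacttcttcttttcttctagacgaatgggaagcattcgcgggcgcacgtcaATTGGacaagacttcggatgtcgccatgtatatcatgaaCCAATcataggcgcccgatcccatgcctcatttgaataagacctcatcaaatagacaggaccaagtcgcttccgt

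**Figure D3:**
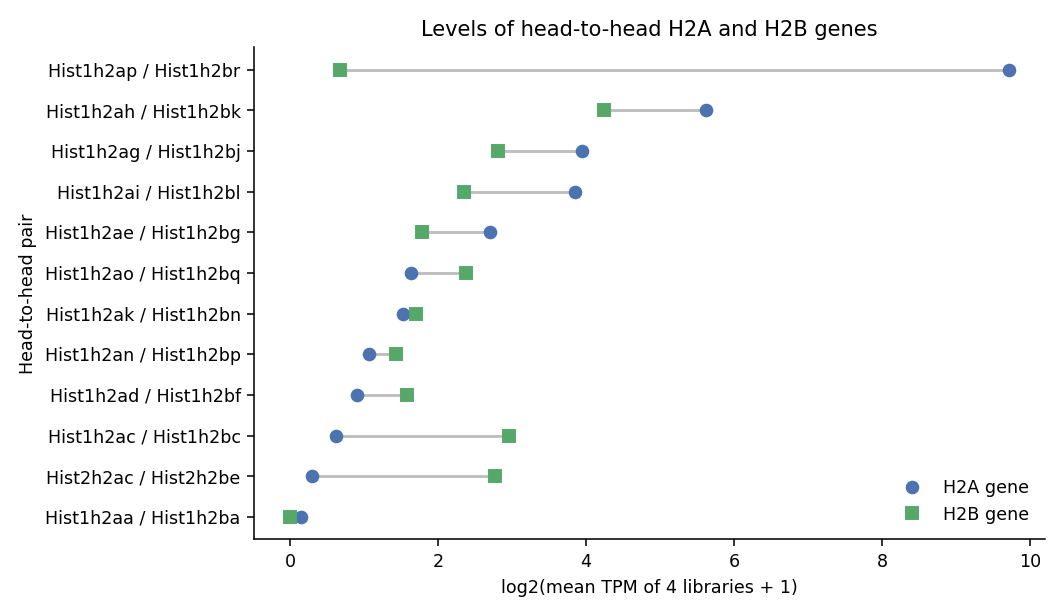
Mean level of the H2A gene (circles) and the H2B gene (squares) of each of the 12 head-to-head pairs, as log2(mean TPM of the 4 libraries + 1). The Hist1h2ap and Hist1h2br pair is the widest, and either type can be the higher one; the mean of Hist1h2ah is set by WT 2.

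The stretch held CCAAT 3 times, and neither TATAAA nor the octamer ATTTGCAT. Over promoters running from 250 bases before the start to 50 after it, RefSeq entries were found for 62 of the 67 genes, and both strands were searched. CCAAT was in 85.5% of these, against 37.4% of all 32851 promoters: in all promoters of H1, H2A, H2B and H3 genes, but in 3 of 12 of H4 genes. The octamer, a known element of H2B promoters, was in 7 of 18 H2A and 6 of 16 H2B promoters and in none of the other types, against 1.74% of all promoters. As paired genes share bases, the H2A and H2B counts are not independent. TATAAA was in 56.5%, against 13.6% of all. A match is a description of the letters, not of a bound site.

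Sequence sharing was common across the whole group. In 38 of the 67 genes, under 50% of the 31-mers were found in no other gene, and for Hist2h2aa2 none were. The median share of unique 31-mers was 25.1% for H2A, 39.0% for H3, 46.6% for H2B, 52.1% for H4 and 96.2% for H1. Models also differed: 15 genes ended within 15 bases of the stop codon, with a median level of 2.24 TPM, and the 44 with a stem-loop had a median of 1.52 TPM. Among those 44, the 13 with AATAAA after the stem-loop had a median of 0.918 TPM and the other 31 one of 1.70 TPM. TPM divides by the length of the model, so these levels depend on where each model ends.

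**Figure D4:**
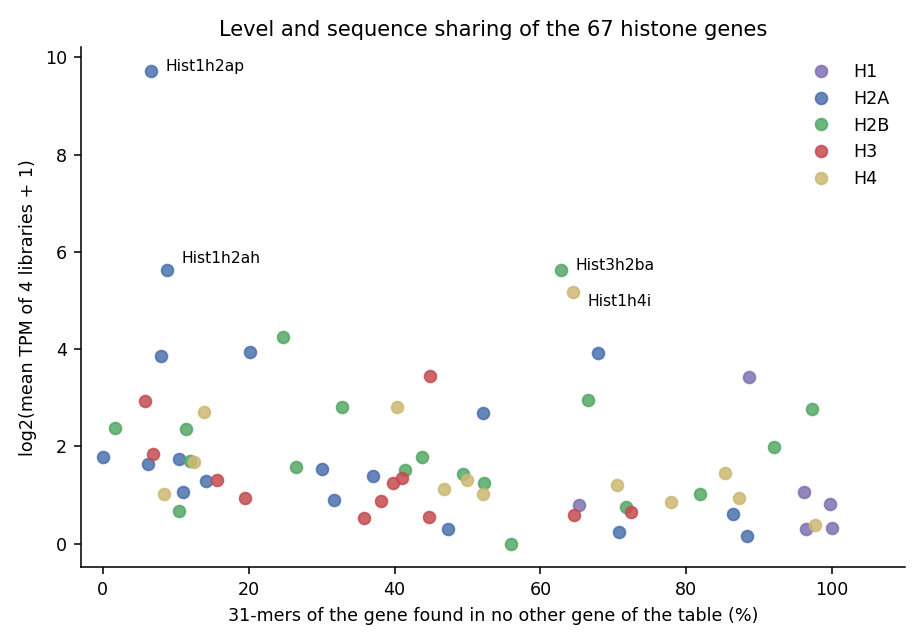
Mean level of each of the 67 histone genes, as log2(mean TPM of the 4 libraries + 1), against the percent of its 31-mers that occur in no other gene of the table, coloured by histone type. Hist1h2ap and Hist1h2ah (its mean set by WT 2) lie at the left, at 6.64% and 8.80%, and Hist3h2ba and Hist1h4i at 62.8% and 64.4%.

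Between libraries of 1 genotype, the median gap of histone genes was wider than that of coding genes in each class of level. For the 29 histone genes with a mean of 1 to 5 TPM, the median gap between WT 1 and WT 2 was 0.46 on the log2(TPM + 1) scale, against 0.23 for the 2634 coding genes in that class. Between KO 1 and KO 2 it was 0.55 against 0.28. From 5 to 10 TPM the medians lay closer, at 0.19 against 0.17 for the WT and 0.30 against 0.20 for the KO libraries (9 histone and 1612 coding genes). For the 8 histone genes at 10 TPM or more they were 0.29 against 0.11 and 0.24 against 0.12, and levels within a class still differ between the groups. By sequence sharing, the gap was as follows over the 46 genes tested, in those with under 50% unique 31-mers (0.40 between the WT and 0.43 between the KO libraries, 31 genes) and in the rest (0.41 and 0.32, 15 genes). These medians are descriptions and were given no test.

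No histone gene differed between KO and WT past the threshold. With limma and Benjamini-Hochberg adjustment over 14496 genes, 0 of 46 histone genes and 0 of all genes (0%) had an adjusted p under 0.05, and the adjusted p was 1.00 for each histone gene. At an unadjusted p under 0.05 there were 3 of 46, against 3.5% of all genes tested (2.09% higher and 1.41% lower in KO), and all 3 were higher H2A genes; this count was 1 with median-of-ratios scaling and 5 without WT 1. Histone genes were higher in KO in 24 cases and lower in 22, where 61.6% of all genes were higher. The median log2 difference was 0.06 for the histone genes and 0.03 for all genes tested. The shift over all genes depended on the scaling: with median-of-ratios scaling 50.7% of all genes were higher and their median was 0.0028, with quantile scaling 50.2% and 0.00082, and the histone median was 0.04 and 0.03. By type it was -0.12 for H1 (2 genes), 0.09 for H2A (13), -0.01 for H2B (15), -0.24 for H3 (6) and 0.00 for H4 (10). The median over the histone genes was -0.10 without KO 1 and -0.03 without WT 1, and 0.11 without KO 2. In the same libraries 12 of 14 otic epithelium markers were lower in KO and 10 of 10 mesenchyme markers higher, 0 of them past the threshold, and their part in the histone values was not tested.

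In 15 of the 46 the genotypes did not overlap, both KO libraries lying above or both below the WT ones, against 29.8% of all genes tested. Of these, 7 were higher in KO (19.2% of all genes were) and 8 lower (10.5% of all genes were). Those with the smallest p among the higher ones were H2A genes and 1 H4 gene. Hist1h2an was listed at 0 in WT 1 and was at 0.537, 1.53 and 2.29 TPM in the others, a log2 difference of 1.22 (SE 0.34). At so low a level this value depends on the pseudocount, with 2.97 at 0.1 TPM and 0.39 at 5 TPM, and without either KO library the gene fell below the filter. Hist1h2ag differed by 0.40 (SE 0.13) and Hist1h4i by 0.47 (SE 0.20), both higher in 2 of 2 KO libraries. Without WT 2 these were 0.26 and 0.25, and without KO 2 Hist1h4i was at 0.29. Hist1h2an shares 81.5% of its 31-mers with Hist1h2ah, so its value too depends on how reads were split.

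Among the lower ones, Hist1h2bn was at 2.57, 2.91, 1.68 and 1.79 TPM, a log2 difference of -0.45 (SE 0.20). Hist1h2bp was at 1.84, 2.63, 0.727 and 1.62 TPM, a difference of -0.59 (SE 0.31) that was -0.29 without KO 1 and -0.89 without KO 2. Hist1h4b differed by -0.26 (SE 0.13). With a pseudocount of 5 TPM these 3 were at -0.20, -0.23 and -0.17. Hist1h2ah had the widest difference of the 46, -3.42, with an SE of 1.81. It was -0.69 without WT 2, the library in which this gene stood apart, and -6.16 without WT 1. The differences of the next 5 named genes moved when single libraries were left out. Hist1h3i was at -1.01 (SE 0.84), and leaving out KO 1, WT 1, WT 2 or KO 2 gave -2.05, -1.66, -0.35 or 0.033. Hist1h1b was at -0.45 (SE 0.32), with -0.74 without WT 1 and -0.29 without KO 2, and without WT 2 it fell below the filter. Hist1h3h was at -0.30 (SE 0.17), with -0.45 without KO 1 and -0.15 without KO 2. Hist1h3c was at 0.22 (SE 0.14), with 0.13 without WT 2 and 0.12 without KO 2. Hist1h1c was at 0.22 (SE 0.18), with 0.43 without WT 1 and 0.0055 without WT 2. Hist1h2bc, Hist1h2bk, Hist1h4k, Hist3h2a and Hist3h2ba were between -0.01 and 0.18, and 4 of these 5, all but Hist1h2bc, changed sign when 1 library was left out.

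**Figure D5:**
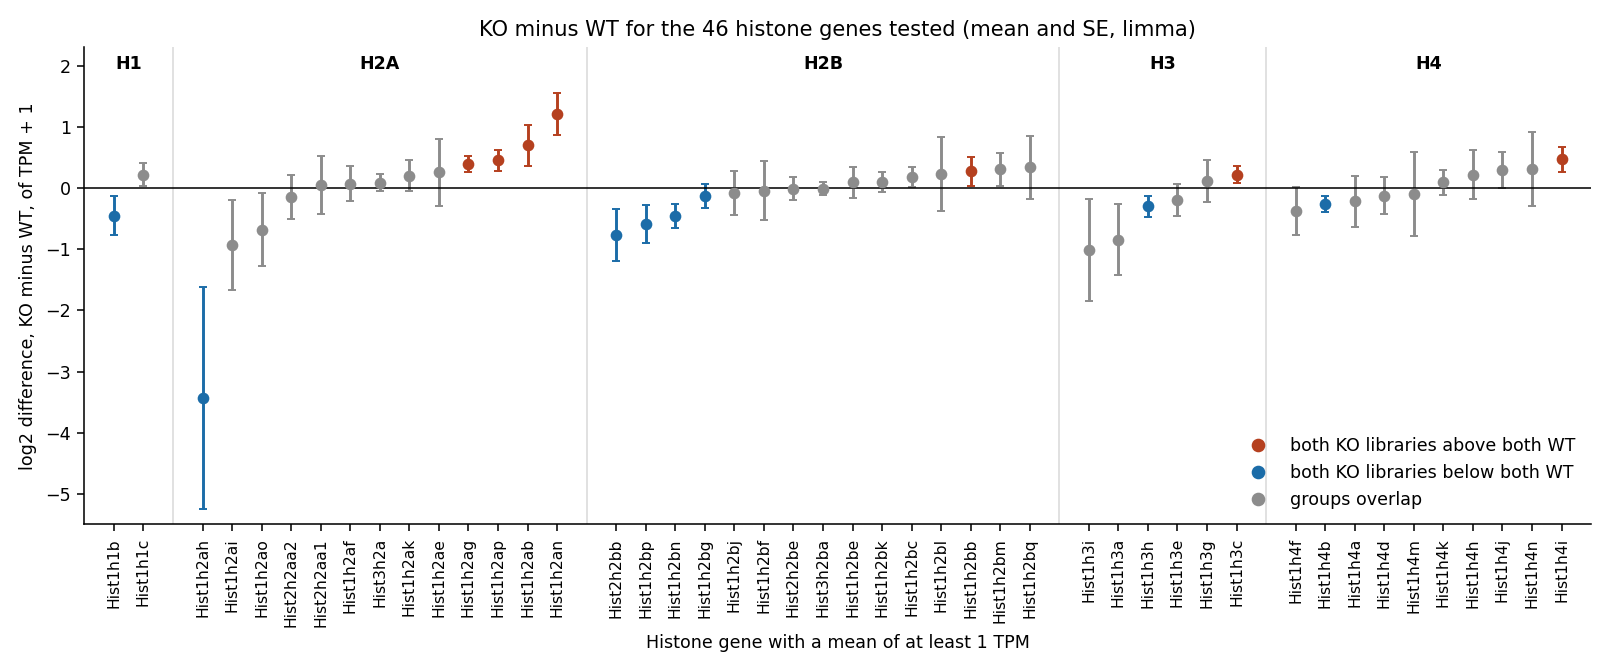
Log2 difference of TPM + 1, KO minus WT, for the 46 histone genes whose mean reached 1 TPM, by type; bars are 1 SE from limma, and colours mark genes whose KO libraries were both above (7) or both below (8) the WT libraries. Hist1h2ah, at -3.42, has by far the longest bar.

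Genes that make and process histone mRNA were measured beside them. Of 18 such genes, 13 were higher in KO and 5 lower, with a median log2 difference of 0.03, and 0 passed the threshold or an unadjusted p of 0.05. Srrt, a cap-complex protein needed for histone mRNA, was at 274, 285, 278 and 315 TPM. Ncbp2, of the cap-binding complex, was at 187, 162, 186 and 182 TPM. Hinfp, a zinc finger activator of H4 genes, had the smallest p, at 13.4, 15.5, 16.6 and 18.5 TPM (log2 difference 0.27, SE 0.12). Slbp, which binds the stem-loop and was named here outside the rule, was at 150, 149, 159 and 142 TPM. Npat, the coactivator of histone genes and likewise named outside the rule, was at 15.3, 14.3, 17.3 and 17.0 TPM (log2 difference 0.20, SE 0.099).

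Replication-independent histones had far higher TPM, with an even sum. Their 11 genes summed to 6990, 7066, 7265 and 6999 TPM, which was 5.16 to 7.34 times the sum of the replication-dependent genes. H2afx, 1 of the 11 at 290, 395, 349 and 391 TPM, holds the stem-loop core of the replication-dependent genes after its stop codon. H3f3a, a gene for H3.3, was at 2158, 2045, 2120 and 2070 TPM, and H2afz, for H2A.Z, at 1691, 1789, 1914 and 1621 TPM. Together H3f3a and H3f3b stood 105 to 143 times above the 12 H3 genes summed, while H2afz stood 1.60 to 2.28 times above the summed H2A genes. These ratios set polyadenylated mRNAs against mRNAs that mostly lack a poly(A) tail. The RNA selection is not stated, and its part in the ratios was not tested. None of the 11 passed (8 higher, 3 lower, median 0.02). H2afy2, for a macroH2A, had the smallest p, with a log2 difference of 0.10 (SE 0.064).

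Chaperones and cell cycle genes differed little in the same libraries. Among 18 histone chaperones 9 were higher and 9 lower (median 0.01), with Nap1l1 at 912, 847, 858 and 839 TPM, Nasp at 524, 501, 526 and 513 TPM, and Rbbp4 at a log2 difference of -0.10 (SE 0.065). Of 26 S phase genes 13 were higher and 13 lower, with a median of -0.00 and a range from -0.15 to 0.09. Pcna, the replication clamp, was at 414, 359, 349 and 346 TPM (log2 difference -0.15, SE 0.091), and Mcm7, of the replicative helicase, at 253, 257, 241 and 247 TPM. Of 15 genes of G2 and mitosis 10 were higher and 5 lower (median 0.02), with Top2a at 442, 399, 437 and 434 TPM and Cdk1 at a log2 difference of -0.08 (SE 0.067). In these 3 lists 0 genes passed the threshold, and 0 had an unadjusted limma p under 0.05.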

How the data were processed

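The authors deposited gene-level TPM for 2 WT and 2 KO libraries. Per the submitters' processing notes, Salmon 0.9.1 and GRCm38 were used; the annotation release, the summing per gene and the handling of identical transcripts are not named in the labels. Each library summed to 1000000 TPM, TPM keeps no depth, and no counting interval is given. Reads that match several near-identical histone copies are divided by an estimate, so single-gene values are uncertain where sharing is high.

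Gene IDs were matched by number to GENCODE M21 (34582 of 34866; all 67 histone genes with the same version). Differences are log2(TPM + 1), KO minus WT, from limma 3.58.1 in R 4.3.3 with genotype as the only term and a mean-variance trend, for the 14496 genes whose mean reached 1 TPM, two-sided, with Benjamini-Hochberg adjustment and a threshold of 0.05. The fit was also run on data simulated from its own model, which does not test how well that model suits these libraries. An exact test of 2 against 2 cannot give a p below 0.333. Shared 31-mers were counted over the GENCODE transcripts of the genes in the table.

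Named genes are the 3 highest of each type, the 4 per direction with the smallest p, the testis genes, the Hist3 and Hist4 genes, and of each list the 2 highest and the 1 with the smallest p; others were named after their values were seen. The histone genes and the lists were chosen with earlier results of these data known. The alternatives were another pseudocount (0.1 or 5 TPM), another filter (none, or a mean of 5 TPM), median-of-ratios and quantile scaling, coding genes only, no variance trend, a replicate block and leaving out each library. Sums without Hist1h2ap, and without Hist1h2ap, Hist1h2ah and Hist1h2ai, were added after the data were seen.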

Additional observations from a re-analysis of the deposited data

How the results depend on the processing

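In every setting run, 0 histone genes were called. Over all genes 0 were called, except 2 without KO 1 and 10 without KO 2, so leaving out a library gave 0 to 10. The median log2 difference of the histone genes lay between 0.03 and 0.09 in the settings that keep all libraries, and between -0.10 and 0.11 with a library left out. The KO over WT ratio of summed histone TPM was 1.17, with 1.02 to 1.32 when a library was left out and 1.15 with median-of-ratios scaling. It was 0.757 without Hist1h2ap, a sum in which Hist1h2ah in WT 2 weighs most, and 1.07 without Hist1h2ap, Hist1h2ah and Hist1h2ai. For the 18 named genes tested, 157 of 157 values kept their direction, though not always their size, in settings with all libraries, and 61 of 69 did with a library left out. The others were those of Hist3h2ba (-0.127 to 0.110), Hist1h4k (-0.093 to 0.281), Hist1h2bk (-0.059 to 0.255), Hist3h2a (-0.037 to 0.208) and Hist1h3i (-2.05 to 0.033).

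With a replicate block, 0 histone genes and 0 of all genes were called, the median log2 difference was 0.06, and 3 histone genes and 1178 of all genes had an unadjusted p under 0.05, against 3 and 507 without it. The labels do not say that a number marks a shared litter or day. Deviations of same-numbered libraries correlated at 0.42 over all genes tested and at 0.02 over the histone genes, from 2 pairs only. TPM gives no depth, so how much of the spread of genes near 1 TPM is counting error cannot be computed.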

Other observations

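The 3 pseudogenes whose symbols follow the same pattern were left out of the histone genes. Hist1h2aj, in the first Hist1 block, was at 0, 7.92, 0 and 1.86 TPM (WT 1, WT 2, KO 1, KO 2), so its highest library was the one in which Hist1h2ah, Hist1h2ai and Hist1h2ao were also highest. Hist1h2al was at 0.382, 0.898 and 0.562 TPM in WT 1, KO 1 and KO 2 and listed at 0 in WT 2. Hist3h2bb-ps, which shares 32.9% of the 31-mers of Hist3h2ba, was listed at 0 in both WT libraries and at 0.840 and 0.640 TPM in the KO libraries.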
